A study of Mus musculus with 6 samples.

Results

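The cytosolic ribosomal protein genes, whose products make up the protein part of the ribosomes outside the mitochondria, were taken from the count table by their symbols: *Rpl* or *Rps* followed by a number, *Rplp0* to *Rplp2*, and *Rpsa*, without symbols ending in -ps and without the *Rps6k* kinases. This gave 89 of the 52390 rows, 53 named for the large and 36 for the small subunit. Of these, 82 have more than 1 exon in GENCODE vM21 (GRCm38), and 7 have a single exon: *Rps3a2*, *Rps3a3*, *Rps4l*, *Rpl32l*, *Rpl6l* and *Rps12l1*, annotated as processed pseudogenes, and the coding retrogene *Rpl10l*. The RNA came from brain tissue of 6 male C57BL/6 mice that had received, at 8 weeks of age, an adeno-associated virus vector in the medial prefrontal cortex whose human synapsin I promoter is active in neurons. In the 3 AP1AR-DT_OE mice (AC109347.1 overexpressed in the labels) the virus carried the human lncRNA *AP1AR-DT* beside EGFP, and in the 3 control mice (wild type in the labels) it was the empty vector, so that both groups received virus and surgery. The results of the study name the medial prefrontal cortex as the tissue and its methods cortical tissue. The AP1AR-DT_OE libraries could not be tied to single mice and are called A, B and C. Nothing checks the overexpression here, since the human lncRNA is not among the mouse rows. Each of the 5 markers listed for excitatory neurons, inhibitory neurons, astrocytes, oligodendrocytes and microglia had counts. Markers of cortical excitatory neurons differed many-fold between libraries of both groups. *Slc17a7*, the vesicular glutamate transporter of cortical neurons, had 1148, 192 and 11642 counts in control mice and 12231, 24979 and 4578 in AP1AR-DT_OE mice. *Neurod6* had 175, 4 and 1150 against 658, 1075 and 30 counts. Control mouse 2 was the lowest library for both, and their part in the results was not tested.

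A ribosome joins a small subunit, which reads the mRNA, to a large subunit, which forms the peptide bond, and each holds ribosomal RNA and one copy of most of its proteins. The stalk of the large subunit, built by *Rplp0*, *Rplp1* and *Rplp2*, recruits the translation factors. The mRNAs of these proteins are among the most abundant of the cell, begin with a pyrimidine tract through which mTORC1 controls their translation, and in neurons are also translated in dendrites and axons. They are short, are cut into several exons, and have been copied back into the genome many times as intronless pseudogenes.

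The methods of the study name Bowtie2 as the aligner, which places no read across an intron. A stretch of spliced mRNA that crosses an exon junction has no unbroken match in its own gene, but has one in an intronless copy. The stretches below show this for 3 genes and the copy that received the most counts. Each runs 5' to 3' for 120 bases of coding sequence in GENCODE vM21 transcripts, with the exon junction of the gene after base 60 and the bases at which gene and copy differ in capitals. The first pair is *Rps3a1* on chromosome 3, coding bases 614 to 733 across exons 5 and 6, and *Rps3a2* on chromosome 14. The second is *Rpl3* on chromosome 15, coding bases 137 to 256 across exons 2 and 3, and *Rpl3-ps1* on chromosome X. The third is *Rplp0* on chromosome 5, coding bases 592 to 711 across exons 5 and 6, and *Gm8730* on chromosome 8.
Rps3a1: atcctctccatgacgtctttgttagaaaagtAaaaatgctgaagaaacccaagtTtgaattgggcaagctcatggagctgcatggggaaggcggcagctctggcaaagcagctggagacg
Rps3a2: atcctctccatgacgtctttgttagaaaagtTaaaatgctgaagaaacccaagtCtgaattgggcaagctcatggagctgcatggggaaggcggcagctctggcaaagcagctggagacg
Rpl3: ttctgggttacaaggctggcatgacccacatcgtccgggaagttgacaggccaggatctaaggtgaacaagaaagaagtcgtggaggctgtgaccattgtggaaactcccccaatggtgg
Rpl3-ps1: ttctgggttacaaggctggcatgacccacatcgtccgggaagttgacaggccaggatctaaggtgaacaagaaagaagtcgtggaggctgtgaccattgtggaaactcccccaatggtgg
Rplp0: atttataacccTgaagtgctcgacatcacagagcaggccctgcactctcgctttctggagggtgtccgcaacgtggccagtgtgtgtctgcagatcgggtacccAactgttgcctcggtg
Gm8730: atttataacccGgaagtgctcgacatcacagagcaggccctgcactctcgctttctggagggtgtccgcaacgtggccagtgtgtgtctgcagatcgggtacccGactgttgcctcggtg

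In these stretches *Rps3a2* differed from *Rps3a1* by A645T and T668C, and *Gm8730* from *Rplp0* by T603G and A696G, counted from the first base of the start codon. The *Rpl3-ps1* stretch had 0 differences. Over the whole coding sequence the identities were 99.5% for *Rps3a2*, 99.8% for *Rpl3-ps1* and 98.7% for *Gm8730*. *Rps3a1* had 286, 161 and 183 raw counts in control mice 1 to 3 and 182, 202 and 140 in AP1AR-DT_OE A, B and C, while *Rps3a2* had 14998, 21093 and 19175 and 21244, 21699 and 19222. *Rpl3*, which encodes a protein at the peptidyl transferase centre, had 1072, 879 and 733 and 828, 880 and 866 counts, against 36100, 43104 and 35952 and 49760, 50707 and 43382 for *Rpl3-ps1*. *Rplp0* had 773, 813 and 785 and 724, 708 and 578 counts, against 11472, 13778 and 14597 and 17519, 18465 and 14532 for *Gm8730*. In every library the copy held more counts than the gene. *Rps3a1* was chosen as an example after its values had been seen.

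To describe this over all members, a copy was defined as a gene of at most 2 exons with, inside 1 exon, at least 80% of a member's coding sequence at 90% identity or more. There were 962 such copies of 76 of the 82 multi-exon members, 5 of them being members of 1 exon themselves. A member had a median of 9 copies, from 1 to 74 for *Rpl21*. The copy with the most counts was 99.6% identical to its member at the median and 94.5% at the lowest, and for 21 members a copy had the same coding sequence throughout. In 74 of the 76 members the copies held more counts than the member's own row, the exceptions being *Rpl29* and *Rpl7l1*. The own row held a median of 2.17% of the counts of member and copies, and under 10% in 67 members. The lowest share was that of *Rpl24*, a protein at the bridge between the subunits. Its row had 20, 28 and 10 counts in control mice and 28, 27 and 27 in AP1AR-DT_OE mice, 0.159% of the total with its copies, while its copy *Gm9385* had a mean of 11731. A single copy took most of the copies' counts, 84.9% at the median. Within a member, counts could therefore not be assigned to the gene or a copy with certainty, and whether a copy was transcribed was not tested.

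**Figure D1:**
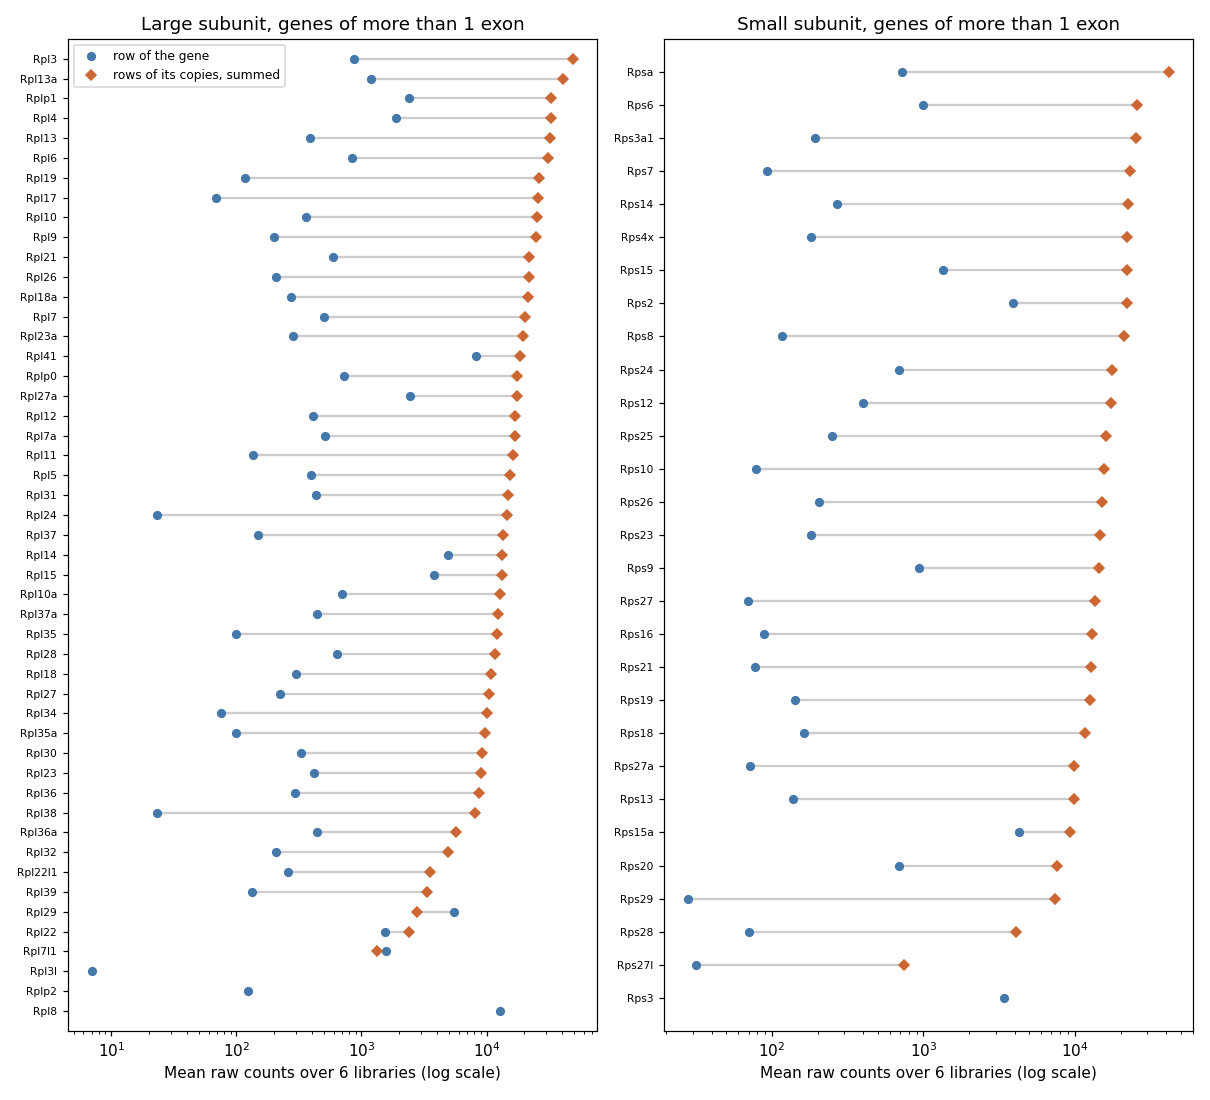
Mean raw counts over the 6 libraries (log axis) of the row of multi-exon ribosomal protein genes with counts (circles) and of the rows of its copies summed (diamonds), by subunit and ordered by the copies. The diamonds lie to the right of the circles except for *Rpl29* and *Rpl7l1*. The 4 genes with a circle alone have no copy under the definition used.

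The share of reads that can map within 1 exon was low for most members. Of all 150-base windows of the main transcript, 150 bases being the read length, a median of 20.2% lay within 1 exon. It was 0% for 9 members, among them *Rpl36*, *Rps21* and *Rps27*, and highest for *Rps15a* at 93.7%. Across the 76 members with a copy, the own row's share of counts and the share of such windows had a Spearman rho of 0.448. Members share libraries and annotation, so this is a description. The 6 multi-exon members with no copy included *Rpl8*, *Rps3*, *Rplp2*, *Rpl3l* and *Rpl39l*. *Rpl8*, whose protein lines the peptidyl transferase centre, had 221 to 314 normalised CPM (raw counts brought to the same total per library, with edgeR's TMM factors) in its own row in every library, although only 16.4% of its windows lay within 1 exon. *Rps3*, which also acts in DNA repair, had a mean of 3405 raw counts. The median over the 76 members with a copy was 5.75 normalised CPM. *Rplp2* had a mean of 123 counts, and a close match of it inside *Wdr89*, a gene of more exons, was not counted as a copy. The row *Rplp2-ps1* was not counted as a copy either. It had 3368, 3598 and 3424 counts in control mice and 4994, 5740 and 4141 in AP1AR-DT_OE mice, far more than the row of *Rplp2*.

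Per kilobase of annotated exon, the highest levels belonged to *Rps3a2* with 493.6 normalised CPM per kilobase, *Rpl8* with 186.0, *Rpl41* with 141.6, *Rpl32l* with 137.4 and *Rpl6l* with 98.3. *Rpl41* encodes the shortest protein of the ribosome, with 78 coding bases including the stop codon. Of these 5, *Rps3a2*, *Rpl32l* and *Rpl6l* are single-exon pseudogenes. The lowest were *Rpl10l*, *Rpl39l* and *Rps12l1*, with 0 counts in all libraries, followed by *Rpl3l* and *Rpl24* with 0.0812 and 0.453 normalised CPM per kilobase. A count of 0 allows up to 3 counts, or 0.0556 to 0.0737 normalised CPM depending on the library, which covers counting error only. *Rpl10l* and *Rpl39l* are known as paralogs of testis, and *Rpl3l* as the paralog of heart and skeletal muscle. *Rpl3l* had 0, 2 and 4 counts in control mice and 0, 12 and 24 in AP1AR-DT_OE mice, so that only B and C were above the controls. It was too low to be tested, as were the 3 members at 0, which left 85 of 89.

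The remaining paralog pairs were compared per kilobase over the 6 libraries. *Rpl3* stood 69.3 times above *Rpl3l*, *Rpl22* 3.99 times above *Rpl22l1*, and *Rps27* 1.74 times above *Rps27l*, a target of p53. The ratios are of means over the libraries, and in single libraries the order could reverse. *Rpl22* lay below *Rpl22l1* in control mouse 1 and in AP1AR-DT_OE B and C, and *Rps27* below *Rps27l* in control mouse 2 and in B. *Rpl7* had 0.417 and *Rps4x*, the X-linked member of its pair, 0.0494 times the level of *Rpl7l1* and of the single-exon *Rps4l*. These ratios are of own rows. Of *Rps4x* and its 8 copies only 0.801% of the counts lay in the row of *Rps4x*, and of *Rpl7* and its copies 2.44%, so they do not give the ratio of the mRNAs.

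In AP1AR-DT_OE against control mice, the rows as deposited showed few differences and no common direction. A gene was called when edgeR's quasi-likelihood test gave *P* under 0.05 and |Log2FC| exceeded 0.32, the thresholds of the study. Of the 85 members tested, 8 (9.41%) were called, where 12.2% of all 21844 genes tested were. Higher were 5 members (against 5.1% of all genes), among them *Rpl27*, *Rpl8*, *Rps2* and *Rps21*, and lower were the 3 members *Rps3a3*, *Rplp0* and *Rps25* (against 7.15% of all genes). The median Log2FC was 0.0116 over the members and -0.0141 over all genes. The members ranged from -1.096 to 2.29, with 43 of 85 above 0. The groups did not overlap in 16 of the 85 members, against 22.4% of all genes. By subunit, 3 of 50 large-subunit and 5 of 35 small-subunit members were called. Without AP1AR-DT_OE B the 8 calls became 4, where 6.33% of all genes were called, and without control mouse 1 they became 5, none of them lower, where 15% were. After correction of each library for the GC content of the genes 8 of 85 members were still called, though only 4 of them were the same, against 7.19% of all genes, so that the members' share then lay above that of all genes and not below it. Calls in the higher direction were 2 without A, 1 without B and 8 without C, and calls in the lower direction 5 without control mouse 3. The calls without A included *Rpl3l*, which was too low to be tested with all 6 libraries. Over all genes the share called in either direction was 7.19% without A, 15.6% without C and 10.8% without control mouse 3.

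One member passed the adjustment over all genes. *Rpl27* (ENSMUSG00000063316, chromosome 11, 101442298 to 101445529, plus strand, 5 exons), a protein of the surface of the large subunit, had 69, 60 and 75 raw counts in control mice and 365, 429 and 348 in AP1AR-DT_OE mice. All AP1AR-DT_OE libraries were above all controls. The normalised CPM were 1.47 ± 0.247 (SD, n = 3) and 7.16 ± 0.705 (SD, n = 3), a Log2FC of 2.29 (standard error, SE, 0.208) and an edgeR adjusted p of 0.0377, where 0.0275% of all genes (6 genes) passed. The exact two-sided permutation test gave p = 0.1, the smallest that 3 against 3 allows. Left-out libraries kept it above a Log2FC of 0.32 with *P* under 0.05, but with any 1 of the 6 left out 0 members passed the adjustment.

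The rows with the same coding sequence as *Rpl27* had smaller differences. *Gm11518* (chromosome 11, 94037218 to 94037628, minus strand), identical to *Rpl27* over the coding sequence, had 4434, 4950 and 4187 counts in control mice and 6332, 6887 and 4935 in AP1AR-DT_OE mice. Its Log2FC was 0.22 (SE 0.149). *Rpl27-ps3*, also identical, had 4514, 4867 and 4463 and 6101, 6493 and 4839 counts, with a Log2FC of 0.14 and a standard error of 0.133. Neither was called. After normalisation their groups overlapped, and the difference between their Log2FC and that of *Rpl27* was not tested. The row of *Rpl27* held 0.603% to 0.855% of the counts of *Rpl27* and its 12 copies in control mice and 2.84% to 3.42% in AP1AR-DT_OE mice. With the copies added, the values were 223, 199.7 and 175 normalised CPM in control mice and 242, 258 and 194 in AP1AR-DT_OE mice, which overlap. The Log2FC was then 0.22 (SE 0.140) and an edgeR *P* of 0.167 (adjusted p = 0.479).

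**Figure D2:**
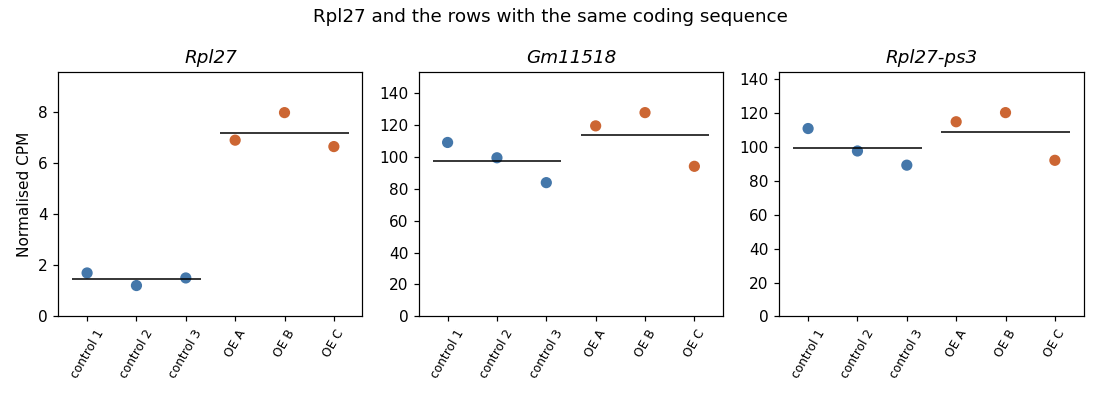
Normalised CPM of *Rpl27* and of 2 rows with an identical coding sequence in each library, each panel with its own axis from 0 and black lines at the group means. The *Rpl27* row lies between 1.21 and 7.96 and separates the groups, while the copies lie near 100 with AP1AR-DT_OE C inside the range of the controls.

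Other members called higher had smaller differences. *Rpl8*, which has no copy, had 222.7, 221.6 and 222.0 normalised CPM in control mice and 294.0, 314 and 242 in AP1AR-DT_OE mice. Its Log2FC was 0.35 (SE 0.111), and the edgeR adjusted p was 0.295. The controls lay close together and below all AP1AR-DT_OE libraries. *Rps2*, a protein of the mRNA entry channel, had 3034, 2954 and 3362 counts and 4804, 5410 and 3886, with a Log2FC of 0.40 and a standard error of 0.142. After normalisation AP1AR-DT_OE C was below control mouse 1, so its groups overlapped. *Rps21* had 45, 56 and 64 counts against 97, 111 and 93, a Log2FC of 0.69. Its groups did not overlap, and its own row held 0.603% of the counts with its copies.

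The members called lower were a stalk protein, a small-subunit protein and a pseudogene. *Rplp0*, the base of the stalk, had 17.0 ± 1.75 normalised CPM (SD, n = 3) in the control group against 12.6 ± 1.40 (SD, n = 3) with AP1AR-DT_OE, a Log2FC of -0.43 (SE 0.143) and groups that did not overlap. Its copy *Gm8730* had a Log2FC of 0.16 (SE 0.103) and was not called. *Rps25*, a small-subunit protein needed for some internal ribosome entry sites, had 306, 340 and 245 counts against 144, 223 and 232, a Log2FC of -0.77 (SE 0.259). It overlaps *Ccdc84* and *Trappc4* on the other strand, and the use of strand in counting is not given in the sources used here. Its copy *Gm2225* had a Log2FC of -0.0027. The pseudogene *Rps3a3* (chromosome 13), which lies within *Pde4d* on the same strand, had 2407, 2635 and 2216 counts against 2167, 2111 and 2120, a Log2FC of -0.38. Under the copies-added fit the sign of *Rplp0* and *Rps25* changed, to 0.13 and 0.03.

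**Figure D3:**
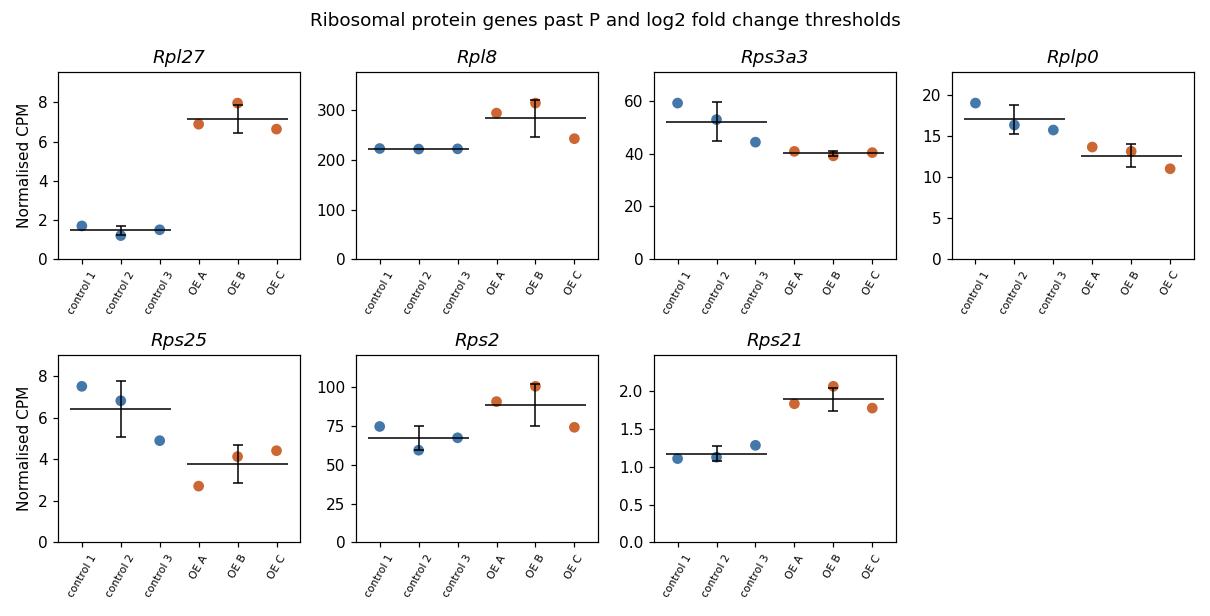
Normalised CPM of 7 called members in each library (axes from 0), with black lines at the group means and bars of 1 SD (n = 3). *Rpl27* shows the widest separation, and *Rps2* is the one whose groups overlap.

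Of the 16 members named for a known role, *Rpl27*, *Rplp0* and *Rps2* were called, as given above, where 12.2% of all genes were. The others were not called in their own rows. *Rps6*, the substrate of S6 kinase, had 926, 1174 and 984 counts against 960, 952 and 937. Its Log2FC of -0.30 (edgeR adjusted p of 0.309) missed the fold threshold, and with its 14 copies it was -0.09. *Rpl5* and *Rpl11*, which bind MDM2 when ribosome assembly fails, had Log2FC of 0.02 and 0.08. *Rpsa*, also known as the laminin receptor, had -0.21, and *Rpl10*, which joins the large subunit last, 0.35 (SE 0.181). *Rps19*, mutated in Diamond-Blackfan anaemia, had 0.25 (SE 0.382), and *Rps14*, lost in the 5q- syndrome, -0.33 (SE 0.277). *Rplp1* had -0.27, *Rplp2* 0.31, *Rps3* 0.03, *Rps4x* -0.35 and *Rpl41* 0.19, and none of these was called.

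Some rows differed more between single libraries than between groups. Over the tested multi-exon members the highest library was a median of 1.70 times the lowest, and in 15 members it was over 3 times. *Rpl22*, which binds cellular and viral RNAs, had 256, 2451 and 2877 counts in control mice and 3048, 284 and 294 in AP1AR-DT_OE mice. Control mice 2 and 3 and AP1AR-DT_OE A were thus far above the others, with 10.9 times between the highest and the lowest library after normalisation. *Rpl34* had 76, 165 and 55 against 24, 20 and 111 counts, and *Rps27* 82, 22 and 146 against 33, 19 and 112. *Rpl28* had 688, 707 and 167 against 145, 1271 and 879 counts, with control mouse 3 and A low. The libraries that stood apart were not the same from gene to gene. Copies did so too: *Rps18-ps6*, 99.1% identical to *Rps18*, had 0, 3258 and 3007 counts in control mice and 4179, 3754 and 0 in AP1AR-DT_OE mice. With the copies added, 0 members varied over 3 times and the median was 1.31. *Rpl22* then varied most, at 2.34 times. *Rps27* with its 9 copies lay between 229 and 327 normalised CPM. These examples were chosen after their values had been seen.

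**Figure D4:**
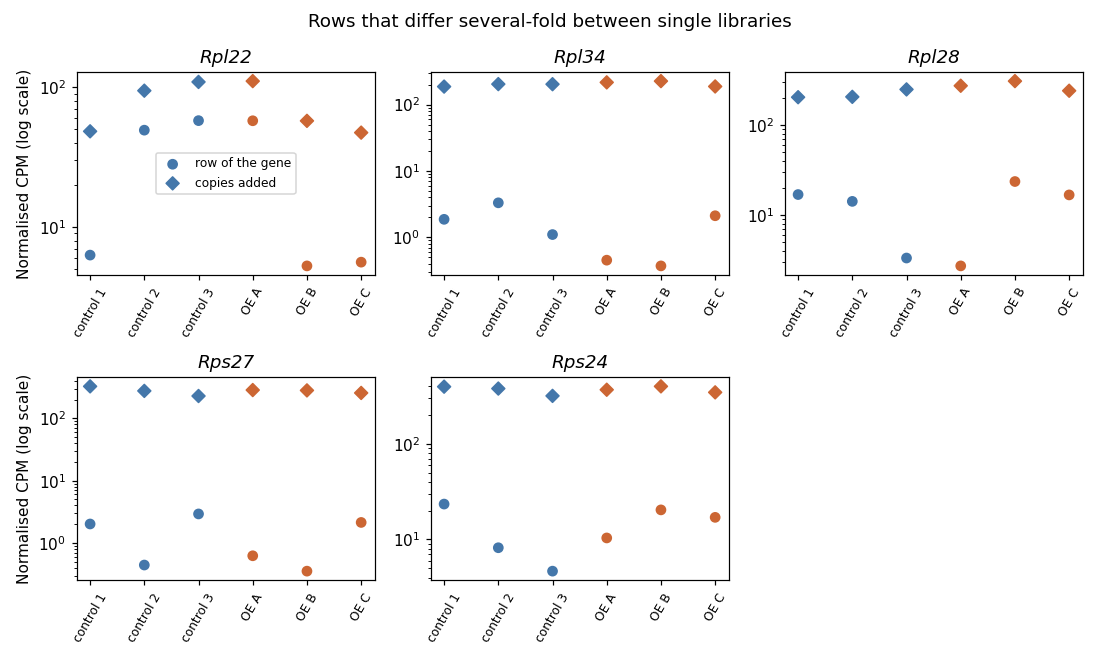
Normalised CPM on a log axis of 5 members that varied over 3-fold between libraries, as the row of the gene (circles) and with copies added (diamonds), control mice in blue and AP1AR-DT_OE libraries in orange. The circles of *Rpl22* fall at 2 levels that cut across the groups, and the diamonds of the other 4 members lie close together.

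Adding the counts of the copies to each multi-exon member, an alternative chosen after seeing the data, moved the members together to slightly higher values in AP1AR-DT_OE mice. The median Log2FC was 0.13 over the 80 members tested, against -0.01 over all 21479 genes of that fit, and 69 of 80 were above 0. Called were 6 members (7.5%, against 12.3% of all genes), all higher (5.16% of all genes) and 0 lower (7.15% of all genes). At an unadjusted *P* under 0.05 edgeR had 11 of the 80 members higher and 0 lower, against 3266 of all 21479 genes in either direction. DESeq2 called 9 of 81 members, all higher and 0 lower, against 9.78% of all genes. The members' share was then close to that of all genes. No member passed the adjustment over all genes in edgeR, where 0.0233% of all genes did, nor in DESeq2. The groups did not overlap in 9 of 80 members, against 22.5% of all genes. The interquartile width of the Log2FC fell from 0.511 in own rows to 0.158 over the 76 members with a copy, and 31 of these changed sign. Of these 76, 0 were called both ways.

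Of the 6 members called, *Rpl8* has no copy, so that no counts were added to its row. The largest Log2FC of the 6 was that of the stalk protein *Rplp1*. With its copies it had 557, 646 and 612 normalised CPM in control mice and 857, 850.1 and 652 in AP1AR-DT_OE mice, a Log2FC of 0.38 (SE 0.133) and an edgeR adjusted p of 0.294. Most of these counts were in *Gm10073*, annotated as protein-coding, with 19294, 28960 and 27925 against 42223, 42431 and 31533 counts. *Rps13*, a small-subunit protein, had 165, 168 and 188 against 234, 233 and 194 normalised CPM and a Log2FC of 0.34 (SE 0.108). *Rpl29* had 0.36, *Rpl36* 0.37 and *Rps19* 0.33, all with SE between 0.122 and 0.137. *Rps2* lay just below the fold threshold, at 0.32 (edgeR adjusted p of 0.308). In *Rplp1* and *Rps13* AP1AR-DT_OE C was the lowest of its group and closest to the controls.

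**Figure D5:**
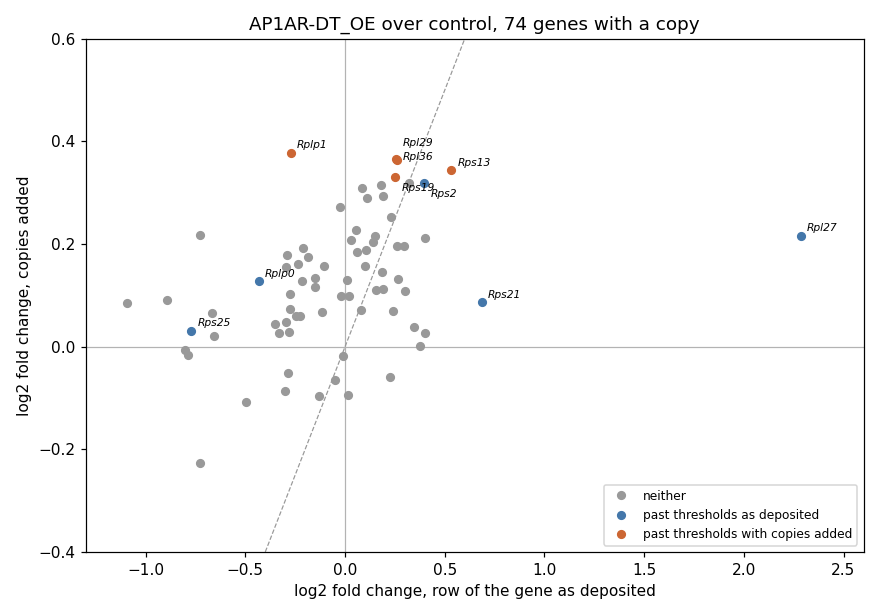
Log2FC of AP1AR-DT_OE over control mice for 74 members with a copy, in the row of the gene (x axis, -1.10 to 2.29) and with copies added (y axis), the dashed line marking equal values. The spread along y is smaller than along x, *Rpl27* falls from 2.29 to 0.22, and most points lie above 0 on the y axis.

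The number of calls with copies added depended on single libraries. It was 1 without A, 1 without B and 19 without C, 4 without control mouse 1, 8 without control mouse 2 and 5 without control mouse 3. The member called without A was *Rpl3l*, which has no copy and was too low to be tested with all 6 libraries. It had 0, 2 and 4 counts in control mice and 0, 12 and 24 in A, B and C. The member called without B was *Rpl29*. Over all genes the share called was 7.22% without A, 6.37% without B, 15.6% without C, 15.1% without control mouse 1, 9.81% without control mouse 2 and 10.7% without control mouse 3. The 19 of 80 members without C lay above that share, and the calls without control mouse 1 fell while those over all genes rose. After correction of each library for the GC content of the genes, 3 of 80 members were called with copies added, *Rps13*, *Rpl30* and *Rps20*, where 7.16% of all genes were, the median Log2FC was 0.0865, and 65 of 80 were above 0. The multi-exon members had a median GC content of 50.9%, against 49.4% over the genes tested, and the 7496 genes within their interquartile GC range had a median Log2FC of 0.0509 as deposited. In all, members and copies took 26071, 26007 and 23643 normalised CPM in control mice and 28878, 29223 and 24516 in AP1AR-DT_OE mice, so that C lay within the range of the controls (exact two-sided permutation p = 0.3). The own rows held 6.28% to 6.65% of this in every library. The 5 excitatory neuron markers summed to 2213, 1289 and 2257 normalised CPM in control mice and 2720, 3361 and 1932 in AP1AR-DT_OE mice, also highest in A and B. The 6 choroid plexus markers summed to 3898 in control mouse 3 and to 50.9 to 74.3 elsewhere, and that mouse had the lowest sum of ribosomal protein counts. The part of either in the result was not tested. In bulk tissue, fewer cells of a type and less RNA per cell cannot be told apart.

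The genes around the ribosome were read from the same fit, as deposited. *Fau*, whose product carries a ribosomal protein fused to a ubiquitin-like protein, was not called, with a Log2FC of -0.08. Of the 78 mitochondrial ribosomal proteins 8 were called (10.3%), all higher and led by *Mrpl52* (251, 285 and 282 against 480, 538 and 405 counts, Log2FC 0.61), *Mrps26* (0.33) and *Mrpl15* (0.32), and the median was 0.12. Of 40 ribosome biogenesis genes 4 were called, the RNA polymerase subunit gene *Polr1d* (0.52) and *Nob1* (0.40) higher, and the nucleolar *Npm1* (-0.53) and *Ncl* (-0.44) lower, with a median of -0.01. Of 30 translation factors and related genes *Eif3a* (-0.39) and *Naca* (-0.42) were called lower, and of 17 mTORC1 pathway genes *Mlst8* (0.33), a subunit of the complex, was called higher. The share called in both directions together was below 12.2% in each of these lists, and no gene of them passed the adjustment over all genes in edgeR. In the higher direction alone, the 10.3% of mitochondrial ribosomal proteins lay above the 5.1% of all genes. Of the 78, 59 had a Log2FC above 0, against 10584 of all 21844 genes tested. At an unadjusted *P* under 0.05 these lists held 10, 5, 4 and 1 genes, in this order from the mitochondrial ribosomal proteins. Over all genes 3304 of 21844 had such a *P*. Over 361 tested copies outside the members the median Log2FC was 0.06, and 34 were called (9.42%). Of these copies 26 were higher (against 5.1% of all genes) and 8 lower (against 7.15% of all genes). Those with the smallest *P* were *Gm6344*, a copy of *Rpl29* (60, 43 and 70 against 775, 244 and 335 counts), *Rpl17-ps8* (462, 576 and 610 against 1200, 1253 and 858) and *Gm7434*, a copy of *Rpl32* (492, 623 and 702 against 1248, 1217 and 925).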

How the data were processed

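Paired-end 150-base RNA-seq of 6 libraries gave 42061721 to 54668294 counts each. The authors deposited raw counts per gene in 1 table. Their methods name Bowtie2 on GRCm38 and StringTie with the GENCODE annotation, whose coverage was turned into counts, while the submitters' processing notes list TopHat2 2.0.4, HTSeq, Cuffdiff, edgeR 2.6.12 and mm9, so the route is uncertain. The table's columns of means, fold changes and P-values were not used.

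Counts were normalised with TMM and tested over all genes in R 4.3.3 with edgeR 4.0.16 (filterByExpr, quasi-likelihood test, two-sided, Benjamini-Hochberg adjustment), all 6 libraries and no covariate. The common biological coefficient of variation was 0.313, and n was 3 per group. Exact permutation tests used log2(normalised CPM + 0.1). GC and length curves were splines with 5 degrees of freedom. Copies were found with blastn 2.17.0 among GENCODE vM21 transcripts. Coordinates are from vM21. Sequences are GENCODE transcripts, and the RefSeq tables were not used.

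The fits were tested on simulated counts with known changes. Alternatives were DESeq2 1.42.0, limma-voom (limma 3.58.1), other scaling and filters, GC and length correction, pseudogenes added by symbol, mitochondrial genes left out, and each library left out. The members, lists and tests were chosen with earlier results of these data known. Named were the called members, the 5 highest and 5 lowest levels, 16 members with known roles, 7 paralog pairs, and in other lists the 3 called genes with the smallest P. A few genes of the members and lists are counted in all totals but are not reported here by name or plotted.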

Additional observations from a re-analysis of the deposited data

How the results depend on the processing

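Of the 8 calls in own rows, 8 remained with DESeq2's size factors, library totals, no low-count filter, a minimum of 10 counts per library and mitochondrial genes left out, 7 with limma-voom, 6 with DESeq2 and with transcript length correction, 5 with pseudogenes added by symbol, and 4 with GC content correction, which called 8 in all. The share called over all genes was then 7.19%, below that of the 85 members tested. With no low-count filter 8 of 86 members were called, a share close to the 9.14% of all genes. With pseudogenes added by symbol 11 of 85 members were called, among them *Rplp2*, a share close to the 12.3% of all genes. Members higher were 3 with DESeq2, 9 with pseudogenes added by symbol and 3 with transcript length correction, which gave 6 lower. Adding copies, an alternative chosen after seeing the data, gave 0 lower. Members at an adjusted p under 0.05 were 0 with copies added, limma-voom and pseudogenes added by symbol. The median log2 fold change was 0.128 with copies and 0.0845 with pseudogenes by symbol. *Rplp0* was 0.13 and *Rps25* 0.0308 with copies, and *Rps25* 0.17 with pseudogenes by symbol. With single libraries left out, calls were 4 to 11, higher 1 to 8, lower 0 to 5, adjusted p under 0.05 in 0, and the median -0.0618 to 0.0928. The share called over all genes was then 6.33% to 15.6%. With copies added and single libraries left out, calls were 1 to 19, all higher, and the median 0.0804 to 0.221. Of all genes 6.37% to 15.6% were then called. GC content correction with copies added called 3, all higher, against 7.16% of all genes. The cause of these changes was not tested. No paired analysis was possible because the labels of the groups share 1 number only and the AP1AR-DT_OE columns carry no mouse number.

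Copies were searched among annotated transcripts, and those inside genes of more than 2 exons were not added. Reads of gene and copy cannot be separated in these counts, and low own rows such as *Rpl24* rest on 10 to 28 counts.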
